A study of Arabidopsis thaliana with 18 samples.

Results

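PYK10, AT5G26260 and AT5G26280 are 3 genes of Arabidopsis thaliana that were singled out as abundant root transcripts outside the root hairs. They were taken by gene name, with 1 probe set each (PYK10 is locus AT3G09260), and make up 3 of the 13350 genes that were named alone on one of the 22746 probe sets tested. They were chosen by their signal levels on these same arrays, and their responses to induction were known when the choice was made, so the values below are a description of 3 chosen genes. By mean log2 signal PYK10 was brighter than 99.8% of tested probe sets, AT5G26260 than 83.2% and AT5G26280 than 82.7%, so PYK10 alone was near the top. The question was how far these transcripts hold their level when the transcription factor DUO1 is induced.

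PYK10 is a beta-glucosidase that root cells store in ER bodies, spindle-shaped compartments of the endoplasmic reticulum found in Arabidopsis and its relatives. When tissue is damaged, PYK10 meets its glucosinolate substrates and gathers into large complexes with jacalin-related lectins. The transcription factor NAI1 is needed for ER bodies and for high PYK10 expression, and NAI2 is a component of the ER body itself. AT5G26260 and AT5G26280 carry no symbol in the annotation used here, which gives no function for them.

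The arrays were Affymetrix ATH1 arrays hybridised with RNA from whole Col-0 plants with pMDC7DUO1, a construct that places DUO1, a MYB factor of the male germline, in pMDC7, an oestradiol-inducible vector. Every plant was 12 days old, grown in constant light at 22 degrees, and the labels give all groups the same genetic variation, a T-DNA mutation. The 6 groups were plants with DUO1 induction at 6 h, 12 h or 24 h and plants without induction at the same times, with 3 arrays in each and 18 in all. The labels do not name the inducer, and no group received it without the construct, so DUO1 and the inducing treatment cannot be told apart. They also leave unsaid whether replicates were grown as separate cultures. The p-values thus cover the spread among these samples alone, which may be technical.

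The deposited signals had been scaled by the authors to a trimmed mean of 100 on each array, and array medians lay between 34.3 and 39.5. The background level of an array, taken as its highest signal among controls whose transcripts were not added, ran from 3.30 to 10.1. DUO1 was not named on any tested probe set, and its transcript is not analysed here. The label "root" could not be checked on a marker list, because 0 of 36 listed genes of other root cell types were measured, that is, were named on a probe set with a single gene. Since whole plants were sampled, fewer cells of a type and less RNA per cell cannot be told apart.

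PYK10 had a high and narrow range of signals. In plants without induction the arrays read 3936, 4130 and 3630 at 6 h, 4102, 4203 and 4147 at 12 h, and 3801, 4046 and 3896 at 24 h. In induced plants they read 4337, 3616 and 3614 at 6 h, 3433, 3948 and 4092 at 12 h, and 3360, 3270 and 3143 at 24 h. The 6 h groups overlapped, while at 12 h and at 24 h each induced array was lower than each array without induction of the same time. Across all 18 arrays the highest PYK10 signal was 1.38 times the lowest, and every signal was between 430 and 1094 times the background level of its array.

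AT5G26260 varied more from array to array. Without induction its signals were 237, 182 and 158 at 6 h, 192, 150 and 248 at 12 h, and 278, 195 and 228 at 24 h. With induction they were 162, 143 and 222 at 6 h, 141, 119 and 182 at 12 h, and 114, 162 and 129 at 24 h. The groups overlapped at 6 h and at 12 h and were separate at 24 h, with the induced arrays lower. The highest array stood at 2.44 times the lowest, and the signals were 16.0 to 67.8 times background.

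AT5G26280 differed from both in that its lowest group was the 6 h plants without induction. Those arrays gave 125, 136 and 115, against 173, 176 and 313 at 12 h and 176, 170 and 171 at 24 h. The induced arrays gave 146, 169 and 229 at 6 h, 200, 215 and 194 at 12 h, and 150, 129 and 152 at 24 h. At 6 h the induced arrays were all higher than those without induction, at 12 h the groups overlapped, and at 24 h the induced arrays were all lower. Groups were separate in this way in 0.655% of all probe sets, and in opposite directions of either order in 1.25%. Replicate 3 of the 12 h plants without induction, at 313, was the highest of the 18 arrays and 2.72 times the lowest.

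**Figure D1:**
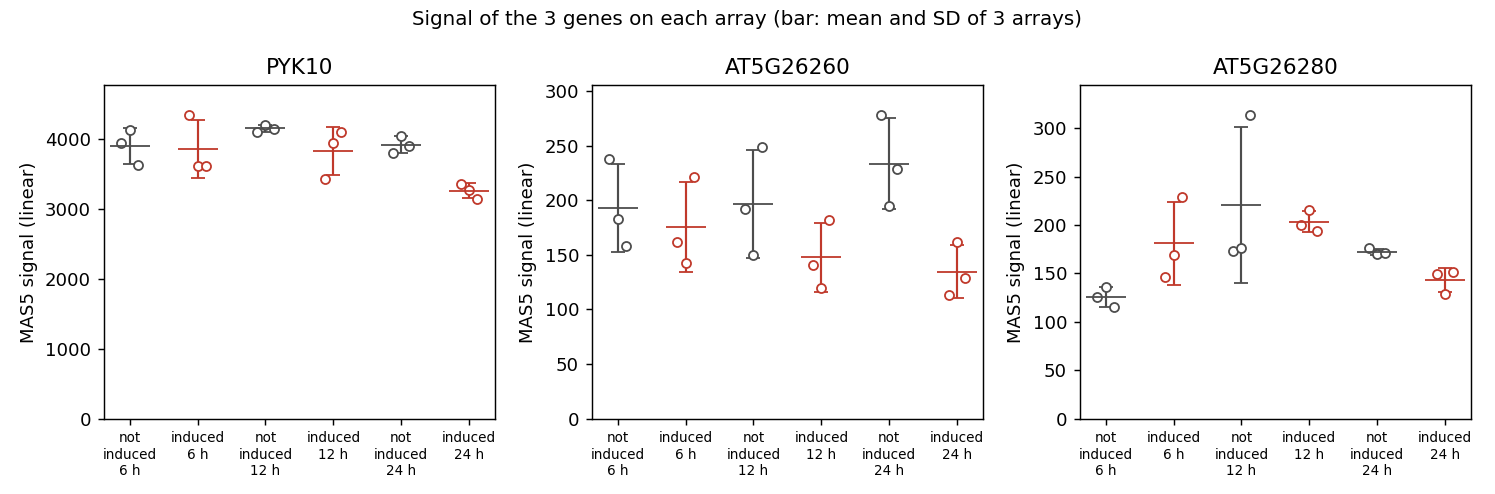
Signal of PYK10, AT5G26260 and AT5G26280 (vertical axis, MAS5 signal on a linear scale from 0) on each of the 18 arrays by group (horizontal axis). Circles are arrays, horizontal bars are group means and error bars are SDs of 3 arrays, in grey without and in red with induction. At 24 h the induced arrays are the lower ones for all 3 genes, and for AT5G26280 they are the higher ones at 6 h.

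Ordered by group mean, PYK10 ran from 4150 ± 50.4 (SD, n = 3) in the 12 h plants without induction, through 3914 ± 124 at 24 h and 3899 ± 252 at 6 h without induction, to 3856 ± 417 at 6 h, 3824 ± 346 at 12 h and 3258 ± 109 at 24 h with induction. Of the neighbours in that order, the first pair and the last pair did not overlap and the 3 pairs between them did. The 24 h arrays lay below the 12 h arrays without overlap in 8.35% of probe sets without induction and in 10.3% with it. AT5G26260 ran from 234 ± 41.9 at 24 h, 197 ± 49.4 at 12 h and 193 ± 40.5 at 6 h without induction to 175 ± 41.1 at 6 h, 148 ± 31.9 at 12 h and 135 ± 24.6 at 24 h with induction. Each group of AT5G26260 overlapped with the next in the order. In both genes the 3 induced groups thus had the lower means, as did 15.5% of all probe sets when each induced group was set against its own time.

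For AT5G26280 the order was 221 ± 80.2 in the 12 h plants without induction, 203 ± 10.9 and 181 ± 42.6 in the 12 h and 6 h induced plants, 172 ± 3.21 in the 24 h plants without induction, 143 ± 12.6 in the 24 h induced plants and 125 ± 10.3 in the 6 h plants without induction. Neighbouring groups overlapped except the 24 h pair, which was separate in that direction in 12.1% of probe sets. Across the 6 groups the highest mean was 1.27 times the lowest for PYK10, 1.73 times for AT5G26260 and 1.76 times for AT5G26280.

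At 6 h after induction 0 of the 3 genes passed limma at an adjusted p of 0.05, against 0.967% of all probe sets. At an unadjusted p of 0.05, 1 gene, AT5G26280, passed, against 13% of all probe sets. PYK10 had a log2 change of -0.02 ± 0.12 (SE, 95% interval -0.27 to 0.23, limma adjusted p = 0.971) and AT5G26260 of -0.14 ± 0.21 (interval -0.57 to 0.29, limma adjusted p = 0.833). For AT5G26280 the estimate was 0.51 ± 0.18 (interval 0.14 to 0.87, limma adjusted p = 0.200), with groups that did not overlap, as for 8.7% of probe sets in that direction. The median log2 change over all probe sets was 0.04.

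By 12 h again 0 of 3 genes passed, where 4.84% of all probe sets did, and 0 of 3 had an unadjusted p under 0.05, where 16.6% did. The log2 changes were -0.12 ± 0.12 for PYK10 (interval -0.37 to 0.13), -0.41 ± 0.21 for AT5G26260 (interval -0.84 to 0.02) and -0.06 ± 0.18 for AT5G26280 (interval -0.43 to 0.30). Their limma adjusted p-values were 0.684, 0.335 and 0.908. The separation of the PYK10 groups at this time, with the induced arrays lower, was shared with 9.88% of probe sets. When replicate 3 of the 12 h plants without induction was left out, the AT5G26280 estimate turned to 0.22, because its high signal of 313 left the mean.

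At 24 h AT5G26260 was lower with induction, and it was the 1 gene of the 3 that passed, against 8.33% of all probe sets. PYK10 too had an unadjusted p under 0.05, which makes 2 of 3 against 21% of all probe sets. The mean signal of AT5G26260 was 135 with and 234 without induction, a log2 change of -0.79 ± 0.21 (interval -1.22 to -0.37, limma adjusted p = 0.0181), which is 0.577 times the level without induction. That call was lost when 1 of 4 arrays was left out (adjusted p = 0.0873 and 0.0551 for replicates 1 and 3 of the plants without induction, 0.0720 and 0.0688 for replicates 1 and 3 of the induced plants). It was also lost without the intensity trend (adjusted p = 0.0739). Over all alternatives the estimate lay between -0.93 and -0.66 and the adjusted p between 0.0107 and 0.0873. From 12 h to 24 h the mean of AT5G26260 went from 197 to 234 without induction (log2 change 0.26, limma adjusted p = 0.742). With induction it went from 148 to 135 (log2 change -0.13, limma adjusted p = 0.864).

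PYK10 and AT5G26280 did not pass at 24 h. PYK10 had a log2 change of -0.27 ± 0.12 (interval -0.52 to -0.01, limma adjusted p = 0.208), or 0.832 times the level without induction with an interval of 0.699 to 0.990, with an unadjusted p of 0.0393. AT5G26280 had a log2 change of -0.27 ± 0.18 (interval -0.64 to 0.10, limma adjusted p = 0.431). In all 3 genes each induced array was below each array without induction, a separation that 12.1% of all probe sets showed in that direction.

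**Figure D2:**
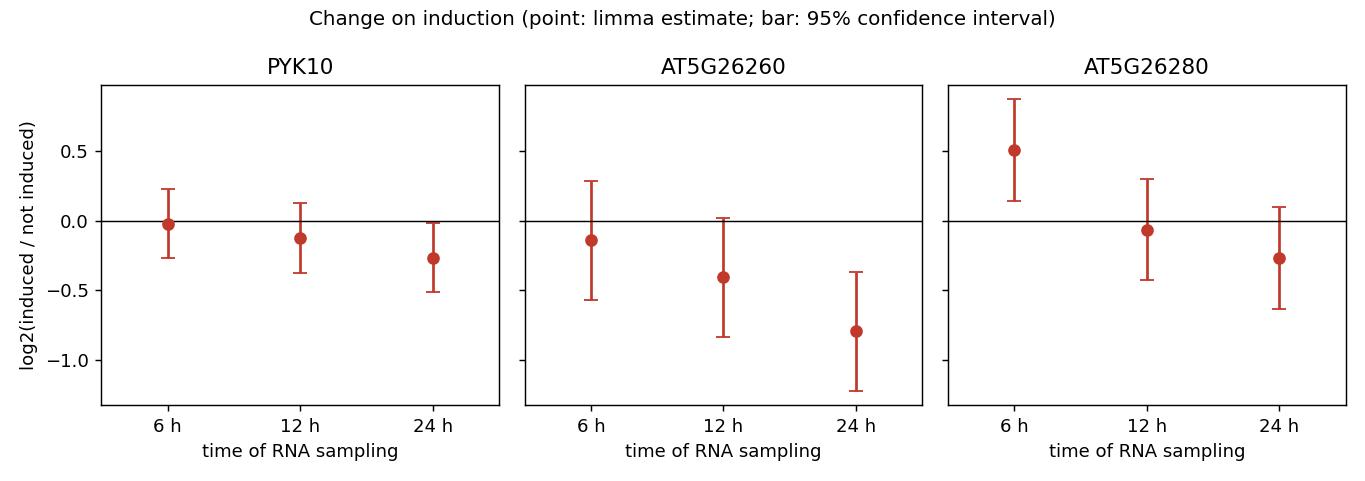
Log2 change on induction (vertical axis, induced over not induced, points with 95% confidence intervals from limma) of PYK10, AT5G26260 and AT5G26280 at 6 h, 12 h and 24 h (horizontal axis). The 24 h interval of AT5G26260, -1.22 to -0.37, lies furthest below 0, and the 6 h interval of AT5G26280, 0.14 to 0.87, lies above it.

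Averaged over the 3 times, AT5G26260 was 0.733 times its level without induction (log2 change -0.45 ± 0.12, interval -0.70 to -0.20, limma adjusted p = 0.0152), and it was 1 of 3 genes to pass, against 12.5% of all probe sets. This call held without each of the 18 arrays in turn and was lost without the intensity trend (adjusted p = 0.0596, over all alternatives 0.0058 to 0.0596). The mean log2 change of PYK10 was -0.14 ± 0.07 (interval -0.28 to 0.01, limma adjusted p = 0.234). For AT5G26280, whose 6 h and 24 h estimates had opposite signs, it was 0.06 ± 0.10 (interval -0.15 to 0.27, limma adjusted p = 0.785).

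Whether a response differed between times was tested directly. From 6 h to 12 h and from 6 h to 24 h, 0 of 3 responses changed past the threshold, against 0.193% and 1.61% of probe sets. At an unadjusted p of 0.05 the counts were 1 and 2 of 3, against 10.6% and 14.1%. The largest estimate was that of AT5G26280, whose response at 24 h minus that at 6 h was -0.78 ± 0.25 on the log2 scale (interval -1.29 to -0.26, limma adjusted p = 0.131). It passed in 1 setting, without replicate 3 of the 12 h plants without induction (adjusted p = 0.0270, over the settings that left out 1 array 0.0270 to 0.284). That array is in none of the groups compared, so the estimate stayed at -0.78. It enters this test only through the spread that all arrays share. The corresponding estimates were -0.65 for AT5G26260 (interval -1.26 to -0.05, limma adjusted p = 0.307) and -0.25 for PYK10 (limma adjusted p = 0.564).

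With time alone 1 of the 3 genes changed. In plants without induction AT5G26280 rose between 6 h and 12 h from 125 to 221, a log2 change of 0.76 ± 0.18 (interval 0.39 to 1.13, limma adjusted p = 0.0224), the 1 call among the 3 genes against 2.91% of probe sets (17.3% at an unadjusted p of 0.05). The groups did not overlap, as in 11.3% of probe sets in that direction. Without replicate 3 at 12 h the change was 0.48 (adjusted p = 0.0817), and the call was also lost without replicate 1 or replicate 3 at 6 h (adjusted p = 0.0582 and 0.0714). The hybridisation controls, RNA added at fixed amounts, moved with this comparison, with a mean log2 signal of 8.49 to 8.80 on the 6 h arrays against 7.91 to 8.27 at 12 h. With these controls as a covariate the change was 0.67 (adjusted p = 0.143), and their part in the result was not tested further. Between 12 h and 24 h without induction 0 of 3 genes passed, against 1.45% of probe sets, and with an unadjusted p under 0.05 also 0, against 10.9%.

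In induced plants 0 of 3 genes passed from 6 h to 12 h, against 1.89% of probe sets, and 0 from 12 h to 24 h, against 3.43%. At an unadjusted p of 0.05 these counts were 0, against 14.6%, and 1, AT5G26280, against 14.6%. AT5G26280 went from 203 to 143 between 12 h and 24 h (log2 change -0.50, interval -0.87 to -0.14, limma adjusted p = 0.141), and it passed without replicate 3 of the 12 h plants without induction (0.0257) and in a fit of only the arrays compared (0.0189). The estimate was -0.50 in both settings, as neither left out an array of this comparison. PYK10 went from 3824 to 3258 over the same step (log2 change -0.23, limma adjusted p = 0.408). In both genes the 24 h induced arrays were all lower than the 12 h induced arrays, as in 10.3% of probe sets.

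The root hair genes gave the contrast for which these transcripts were chosen. EXPA7 and EXPA18, expansins that loosen the walls of growing root hairs, and AT4G26010 were the 3 measured of 27 listed root hair genes, and all 3 fell at each time, with median log2 changes of -1.52, -1.51 and -2.01, where 0.396%, 1.93% and 3.9% of all probe sets fell. The 6 h call of EXPA18 was lost in 14 of the 18 settings that left out 1 array and in 5 of 10 others (adjusted p up to 0.198), and that of EXPA7 in 5 of 18 and 3 of 9 (up to 0.125). The 12 h call of EXPA7 was lost without replicate 2 of the induced plants (0.0752) and in a fit of only the arrays compared (0.0692). EXPA7 was above background on 16 of 18 arrays, and the other 2 were induced arrays. The summed signal of the 3 genes at 24 h was 228 to 317 without induction and 39.0 to 58.7 with it. At 6 h this sum was 151 to 197 without induction and 48.1 to 66.9 with it. Relative to the mean of EXPA7 and EXPA18 on the same array, PYK10 was 1.31 higher on the log2 scale in induced than in other plants, as the mean of the 3 times. AT5G26260 was 1.00 higher and AT5G26280 1.51 higher. With an offset of 16 before the log these values were 0.70, 0.43 and 0.89, and against the mean of all 3 root hair genes they were 1.78, 1.46 and 1.97. In the ratios to EXPA7 and EXPA18 without an offset, the induced and other groups did not overlap at any time. EXPA7 and EXPA18 were themselves lower without overlap at each time, as were 6.02%, 9.88% and 12.1% of probe sets. Their mean log2 changes over the 3 times were -1.68 and -1.22. A gene with no change would thus also stand higher in such a ratio, so the ratios do not show by themselves that a gene held its level. No test is given for these ratios, since the genes on both sides were chosen with their responses known.

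Among genes of the ER body and of the PYK10 complex, the ER body component NAI2 and the lectins JAL33, JAL34 and JAL22 were lower with induction at 24 h. The lectin JAL23 was higher. PYK10 had a log2 change of -0.27 at that time (interval -0.52 to -0.01), and the difference between its change and theirs was not tested. The list of ER body and PYK10 complex genes held 20 entries, of which 7 were measured, 6 of them above background on all 18 arrays. By limma 0 rose and 0 fell at 6 h (0.967% of probe sets called), 1, BGLU19, had an unadjusted p under 0.05 (13% of probe sets), and the median log2 change was 0.06. At 12 h 0 rose and 3 fell, NAI2, JAL33 and JAL34, with a median of -0.28 (1.93% of probe sets fell). At 24 h 4 fell, these 3 and JAL22, and 1 rose, JAL23, with a median of -0.56 (3.9% of probe sets fell and 4.43% rose). The median over all probe sets was 0.04 at 6 h, 0.04 at 12 h and 0.02 at 24 h.

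NAI2 showed overlapping groups at 6 h and separate ones later. Its arrays read 657, 690 and 883 without induction and 437, 437 and 515 with induction at 12 h, and 626, 664 and 736 against 376, 414 and 429 at 24 h. The log2 changes were 0.06 ± 0.11 at 6 h (limma adjusted p = 0.889), -0.67 ± 0.11 at 12 h (limma adjusted p = 0.000897) and -0.73 ± 0.11 at 24 h (limma adjusted p = 0.000227). Both later calls held in every alternative tried. Within the induced plants NAI2 fell by 0.59 from 6 h to 12 h (limma adjusted p = 0.00872).

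JAL33 and JAL34, jacalin-related lectins of the PYK10 complex, went the same way. JAL33 gave 1509, 1239 and 1246 without induction and 759, 793 and 647 with it at 24 h, a log2 change of -0.86 ± 0.13 (limma adjusted p = 0.000212). JAL34 gave 1126, 1063 and 1112 against 643, 583 and 556, a change of -0.89 ± 0.13 (limma adjusted p = 0.000116). Both 24 h calls held in every alternative. At 12 h the changes were -0.54 (limma adjusted p = 0.0188) and -0.57 (limma adjusted p = 0.0120), and the JAL33 call was lost without each of 4 single arrays (adjusted p up to 0.107) and without the intensity trend (0.0615), the JAL34 call without each of 2 (up to 0.0872).

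The other lectins differed from these. JAL22 had 632, 661 and 582 without induction and 480, 545 and 588 with it at 12 h, where the groups overlapped, and 700, 602 and 592 against 474, 513 and 478 at 24 h, where they did not. Its 24 h change of -0.37 ± 0.11 passed by little (limma adjusted p = 0.0406) and lost its call in 8 of the 18 settings that left out 1 array (adjusted p up to 0.160). Without induction JAL22 rose from 6 h to 12 h (log2 change 0.42, limma adjusted p = 0.043), a step at which 2.91% of probe sets were called. With induction its means were 524 at 6 h, 538 at 12 h and 488 at 24 h, and neither step passed (limma adjusted p = 0.934 and 0.653). JAL23 rose at 24 h, with induced arrays of 42.9, 67.7 and 88.6 against 20.8, 23.1 and 27.7 without induction (log2 change 1.42 ± 0.23, limma adjusted p = 0.000288). That difference came with a fall between 12 h and 24 h in the plants without induction (log2 change -1.14, limma adjusted p = 0.0109), while the induced mean was 53.1 at 12 h and 66.4 at 24 h.

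NAI1, the regulator of the ER body genes, was at 79.8, 51.7 and 54.4 without induction and 55.4, 35.1 and 36.3 with it at 24 h. The groups overlapped, and its log2 change of -0.56 ± 0.18 did not pass (limma adjusted p = 0.0696). BGLU19, a beta-glucosidase related to PYK10, had a mean signal of 8.32, was above background on 12 of 18 arrays and passed at no time. BGLU21 and BGLU22, the closest relatives of PYK10, were not named on a probe set with a single gene, and whether their transcripts reach the PYK10 probes was not tested.

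**Figure D3:**
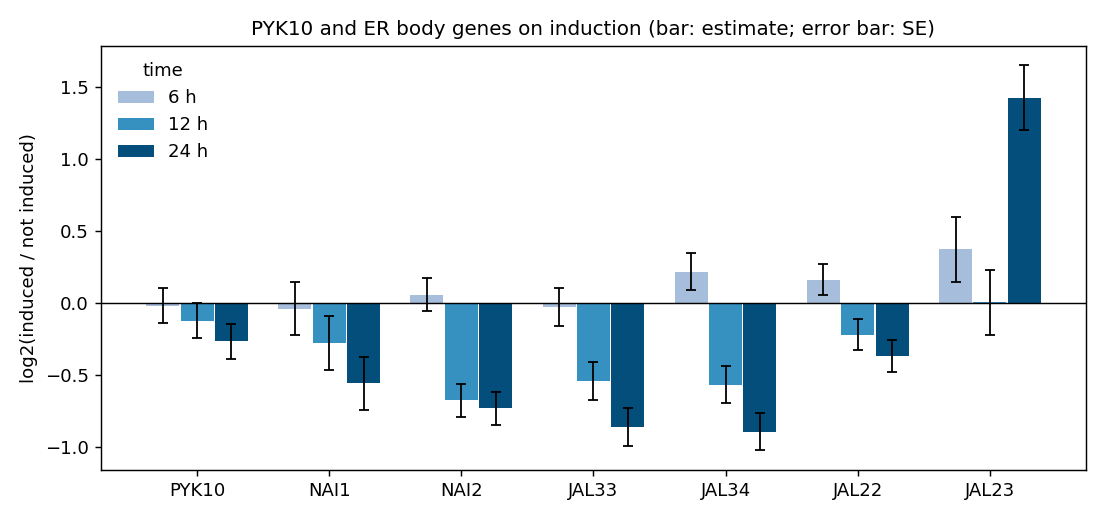
Log2 change on induction (vertical axis, induced over not induced) of PYK10 and 6 genes of the ER body and the PYK10 complex (horizontal axis), with a bar for each of 6 h, 12 h and 24 h and the SE from limma as error bar. NAI2, JAL33 and JAL34 have 24 h bars of -0.73, -0.86 and -0.89, where PYK10 is at -0.27 and JAL23 at 1.42.

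Array quality and the signals of shoot photosynthesis genes, stable reference genes and 1 glucosinolate gene were read beside these results. The balance of shoot and root signal was not measured. The ratio of the GAPDH 3′ to 5′ control probe sets was 1.35 to 1.51 on the induced 12 h arrays and 1.18 to 1.33 on the other 12 h arrays, at 24 h it was 1.27 to 1.46 with and 1.01 to 1.47 without induction, and at 6 h 1.04 to 1.40 with and 1.11 to 1.33 without. The actin 3′ to 5′ ratio was 16.3 to 19.8 with and 19.8 to 22.9 without induction at 6 h, 20.5 to 22.5 and 16.6 to 23.3 at 12 h, and 20.7 to 21.5 and 17.4 to 24.2 at 24 h. Of 19 listed photosynthesis genes of the shoot 5 were measured, and 0 passed limma at any induction time, adjusted or unadjusted. Of all probe sets 0.967%, 4.84% and 8.33% passed adjusted and 13%, 16.6% and 21% unadjusted. The 5 photosynthesis genes had median log2 changes of -0.12, 0.06 and 0.13, and their summed signal at 24 h was 16333 to 23087 with and 16196 to 18656 without induction. Of 9 stable reference genes 3 were measured and 0 passed, against the same adjusted shares, with medians of -0.01, 0.13 and 0.21. At an unadjusted p of 0.05, 1 of them passed at 24 h, against 21% of probe sets. With 3 genes at such shares these counts do not show that the genes were stable. UGT74B1, a glucosinolate glucosyltransferase, was the 1 measured gene of 11 in the indole glucosinolate list and passed at no induction time (log2 changes 0.44, 0.10 and -0.24). At 6 h its unadjusted p was under 0.05 (13% of probe sets), and its induced arrays were all higher (8.7% of probe sets). Within induced plants UGT74B1 fell from 12 h to 24 h (log2 change -0.50, limma adjusted p = 0.0371), a step at which 3.43% of probe sets were called. The part of these measures in the results for PYK10, AT5G26260 and AT5G26280 was not tested.

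AT5G26260 and AT5G26280 lie near each other on chromosome 5, with 4 loci between them in the TAIR10.1 annotation, of which 2 code for proteins and 1, AT5G26270, was named on a probe set. AT5G26270 had log2 changes of 0.24, -0.16 and -0.27 at 6 h, 12 h and 24 h, overlapped at each time and passed at none (limma adjusted p = 0.671, 0.763 and 0.504). Over the 18 arrays its log2 signal correlated with that of AT5G26280 at r = 0.49 and with that of AT5G26260 at r = 0.14, a description over arrays that share 6 groups.

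AT5G26250, the locus directly before AT5G26260, moved in the opposite direction to it. At 24 h its signal was 38.0 ± 4.43 (SD, n = 3) in induced plants and at or below background on all 3 arrays without induction (mean 2.56 ± 1.68), so it was at least 8.64-fold higher (limma adjusted p = 0.00322). At 12 h it was 53.6 ± 12.7 against 2.91 ± 3.20, with 1 of 3 arrays without induction above background (limma adjusted p = 0.00183). PYK10 on chromosome 3 had 1 nearby locus named on a probe set, AT3G09250, whose log2 changes of -0.08, 0.06 and 0.13 did not pass (limma adjusted p = 0.802, 0.837 and 0.507).

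**Figure D4:**
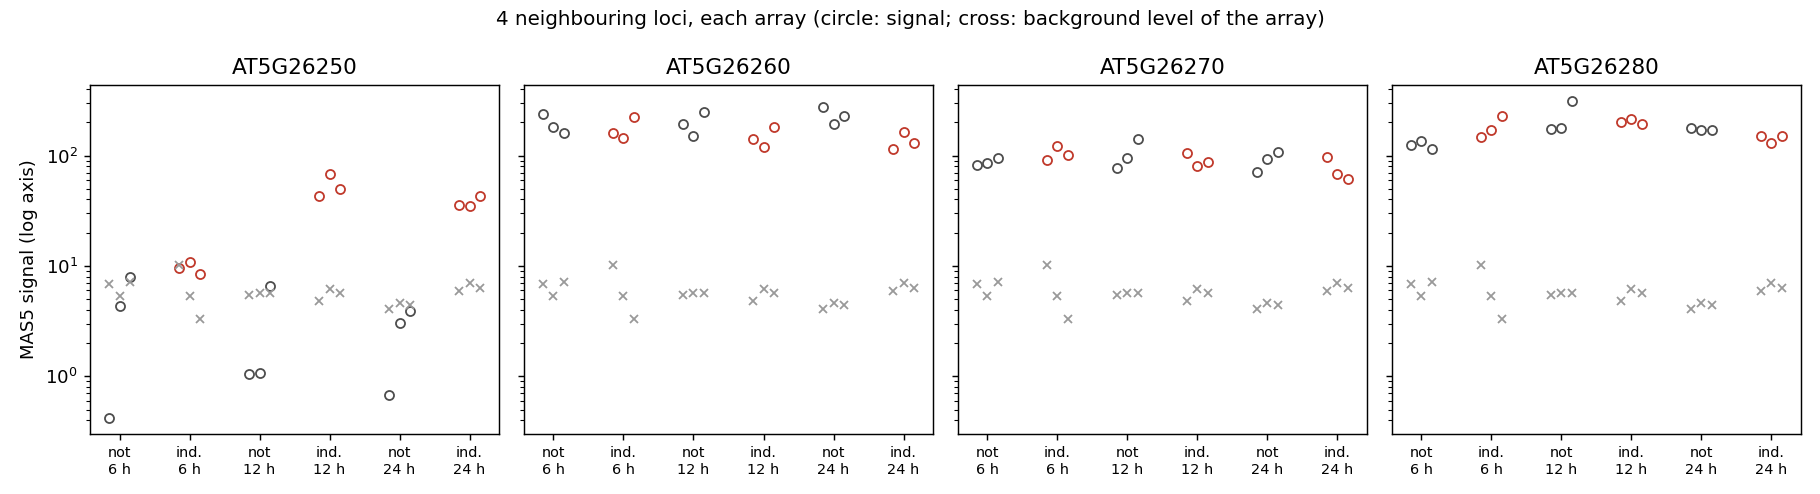
Signal on each array (vertical axis, MAS5 signal, log axis) by group (horizontal axis) for AT5G26250, AT5G26260, AT5G26270 and AT5G26280 in their order on chromosome 5. Circles are arrays, in grey without and in red with induction, and crosses mark the background level of each array. AT5G26250 has induced means of 53.6 at 12 h and 38.0 at 24 h and lies near or below background without induction.

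The 3 genes were also set against each other. Over the 18 arrays, which share the 6 groups, the log2 signals of PYK10 and AT5G26260 had a Pearson r of 0.42, those of PYK10 and AT5G26280 0.24, and those of AT5G26260 and AT5G26280 0.23. Once group means were taken out, the same correlations were -0.02, -0.20 and 0.45.

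Genes most like each of the 3 were taken by Pearson r over the 18 arrays, among the 7305 other single-gene probe sets with a mean log2 signal above the 40th percentile, and are given as a description. Being picked on the same arrays, they share the pattern over the groups by selection. For PYK10 they were AT2G35380 (r = 0.87), AT2G45180 (0.86), AT3G06750 (0.84), AT3G16370 (0.83) and AT4G02850 (0.83). All 5 passed as lower at 24 h, as did 3.9% of all probe sets, with log2 changes of -1.12, -0.69, -0.56, -0.49 and -1.41, where PYK10 stood at -0.27. For AT5G26260 they were AT5G44380 (r = 0.87), AT2G37130 (0.83), AT4G13580 (0.83), AT4G15390 (0.81) and AT5G61340 (0.78). These too were all called lower at 24 h, by -0.93, -1.75, -1.64, -1.96 and -0.60, against -0.79 for AT5G26260. Of the 10 calls, that of AT5G61340 was lost in 12 of the 18 settings that left out 1 array and in 3 of 10 others (adjusted p up to 0.161), and that of AT3G16370 in 4 of 18 and 1 of 10 (up to 0.121).

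The genes closest to AT5G26280 were NTRC (r = 0.82), a thioredoxin reductase of chloroplasts, AT5G16810 (0.80), AT1G72090 (0.79), AT2G21860 (0.79) and AT1G12800 (0.79). NTRC was the 1 of these 5 called at 24 h, against 8.33% of all probe sets (log2 change -0.30, limma adjusted p = 0.0346, lost in 5 of 18 settings that left out 1 array and 3 of 10 others, up to 0.175), and 0 of 5 were called at 6 h or at 12 h. At 6 h the 5 had log2 changes from 0.20 to 0.41, and AT5G26280 had 0.51.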

How the data were processed

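RNA of whole plants was measured on 18 ATH1 arrays in 6 groups of 3, assigned from the labels. The deposited intensity values are MAS5 signals. Per the submitters' processing notes, the authors used GCOS, with its version, that of MAS5 and the target of scaling not given in the sources used here. Each array had a trimmed mean of 100 (2% of probe sets dropped at either end). Log2 signals of 22746 probe sets (22810 less 64 controls, no filter) were fitted with limma 3.58.1 in R 4.3.3, with 1 mean per group, an intensity trend, 12 residual degrees of freedom and 7.69 prior ones. Benjamini-Hochberg adjustment ran over all probe sets of a contrast, with a threshold of 0.05, and the steps were tested on simulated data. Arrays limit precision by their number. The background level came from 27 control probe sets.

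The genes named were the 3 members, measured genes of 6 lists (19 of 122 entries), annotated loci within 3 places of a member and the 5 probe sets most correlated with each. Members and lists were chosen with earlier results of these data known. A part of the naming rule that needed gene descriptions could not be applied, since the tables hold none. Names came from the platform annotation and RefSeq (TAIR10.1), and 8730 tested probe sets had none. Arrays with the same replicate number shared no deviations from their group means: over 9 pairs, correlations of deviations were -0.03 to 0.01. This does not tell whether replicates were grown or processed together. Alternatives were leaving out each array in turn, fitting only the arrays compared, the hybridisation controls as a covariate, the replicate number as a block, array weights, robust moderation, no intensity trend, an offset of 16, a filter at the 40th percentile of mean signal, arrays set to 1 median and quantile normalization. Ratios to the expansins were also taken with the offset and against all measured root hair genes. Figures used matplotlib 3.10.9 in Python 3.11.15.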

Additional observations from a re-analysis of the deposited data

Results flagged for a closer look

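AT5G26280 was flagged because its estimated responses to induction had opposite signs at the first and last times, with groups that did not overlap. Neither response passed by itself (limma adjusted p = 0.200 at 6 h and 0.431 at 24 h). At 6 h the 3 induced arrays (146, 169 and 229) were all higher than the 3 without induction (125, 136 and 115). At 24 h the 3 induced arrays (150, 129 and 152) were all lower than the 3 without induction (176, 170 and 171). Groups separated in this way, higher at 6 h and lower at 24 h, in 149 of 22746 probe sets, or 0.655%, and in either opposite order in 1.25%. The response at 24 h minus that at 6 h was -0.78 on the log2 scale (interval -1.29 to -0.26), and the test of this difference did not pass (limma adjusted p = 0.131). With 1 array left out it was -0.92 to -0.60, with adjusted p-values of 0.0270 to 0.284. In plants without induction the 6 h mean of 125 was the lowest of the 6 groups, and those 6 h arrays had hybridisation control means of 8.49 to 8.80 on the log2 scale, against 7.72 to 8.20 on the 24 h arrays without induction. With these controls as a covariate the difference was -0.63 (interval -1.26 to -0.0019, limma adjusted p = 0.458).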

How the results depend on the processing

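Values without a call changed sign in some settings. Quantile normalization gave PYK10 0.12 at 6 h and 0.0670 from 6 h to 12 h in induced plants, and AT5G26260 -0.0111 from 6 h to 12 h without induction. With 1 median for all arrays AT5G26260 had -0.0335 in that comparison and AT5G26280 -0.0076 as the mean of 3 times. Array weights gave -0.0115 for AT5G26260 from 6 h to 12 h without induction, 0.0502 for PYK10 from 6 h to 12 h with it and 0.0563 for AT5G26280 at 12 h. The hybridisation control covariate gave PYK10 0.0251 at 6 h and 0.0201 from 6 h to 12 h in induced plants. Of the calls, those of AT5G26260 at 24 h (-0.79, adjusted p = 0.0739) and over 3 times (-0.45, 0.0596) and of AT5G26280 from 6 h to 12 h without induction (0.76, 0.0921) were lost without the intensity trend. The last was also lost with the covariate (0.67, 0.143) and with only the arrays compared (0.76, 0.105), where AT5G26280 from 12 h to 24 h with induction passed (-0.50, 0.0189). The cause was not tested.

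With 1 array left out, PYK10 ranged from -0.11 to 0.0245 at 6 h and from -0.0614 to 0.0770 from 6 h to 12 h with induction. AT5G26260 ranged from -0.32 to 0.0193 at 6 h, -0.93 to -0.66 at 24 h, -0.16 to 0.20 from 6 h to 12 h without induction and -0.27 to 0.0374 from 12 h to 24 h with it. AT5G26280 ranged from -0.21 to 0.22 at 12 h, -0.0017 to 0.15 over 3 times, -0.92 to -0.60 for the 24 h less the 6 h response, 0.48 to 0.91 from 6 h to 12 h without induction and -0.55 to -0.43 from 12 h to 24 h with it.

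The numbers of probe sets called moved more. At 6 h 220 became 137 with the covariate, 67 with only the arrays compared and 98 to 262 with 1 array left out. At 12 h 1102 became 615 to 1190 with 1 array left out, and at 24 h 1894 became 2974 with array weights and 1161 to 2061. For the 12 h less the 6 h response 44 became 82 with the filter, 76 with the offset, 6 without the trend, 101 with weights and 20 to 65 with 1 array left out. For the 24 h less the 6 h response 367 became 88 without the trend, 583 with weights, 94 with the covariate and 136 to 623. From 6 h to 12 h without induction 663 became 239 without the trend, 192 with the covariate, 222 with only the arrays compared and 231 to 862. From 12 h to 24 h without induction 329 became 126, 793 with weights and 155 to 361. In induced plants 431 became 159, 654 and 149 to 516 from 6 h to 12 h, and 781 became 433, 1204 and 387 to 888 from 12 h to 24 h. With 1 median for all arrays, 89 rose and 133 fell at 6 h (130 and 90 as reported), 492 and 620 at 12 h (662 and 440), and 795 and 1163 at 24 h (1007 and 887). Over 3 times the split was 1124 and 1986 (1663 and 1189), from 6 h to 12 h without induction 213 and 454 (328 and 335), and with it 122 and 326 (188 and 243). With the replicate number as a block, AT5G26260 at 24 h kept -0.79 (adjusted p = 0.0153), and no call of the 3 genes changed, while EXPA18 lost its 6 h call (0.0727) and AT2G35380 at 12 h and AT5G61340 at 24 h lost theirs. JAL22 at 24 h lost its call without the trend (0.0981) and with the covariate (0.0784). The other combinations of result and setting for the 3 genes and the numbers of calls were counted as unchanged. They were 374 with all arrays and 719 with 1 array left out. For a gene this meant the same direction and call. A number of calls could still shift, as from 1102 to between 818 and 1558 at 12 h with all arrays. The other genes named lost a call in 24 and 73 combinations and kept it in 321 and 557, with 0 reversed.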
